A study of Homo sapiens with 12 samples.

Results

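Expression of the fibroblast growth factor (FGF) system was examined in HEYA8 cells, an established human ovarian cancer cell line, through 10 genes chosen by name from the 56269 genes of the count table. They were the ligand genes FGF1, FGF2, FGF5 and FGF18, the receptor genes FGFR1, FGFR2, FGFR3 and FGFR4, the receptor-like gene FGFRL1, and FGFBP1, the gene of a carrier protein for FGFs. All of the cells carried a lentiviral pHIV-dTomato construct that was stably integrated, and infected cells were sorted by their dTomato fluorescence. How many populations each construct gave is not stated in the sources used here. The constructs were the control vector and 3 mutants of betaglycan (BG, gene TGFBR3), a TGF-β co-receptor that carries glycosaminoglycan (GAG) chains. Each name gives the attachment serine that was changed to alanine. S534A (CS-BG) keeps chains that are mainly chondroitin sulfate, S545A (HS-BG) keeps chains that are mainly heparan sulfate, and ∆GAG-BG lacks both serines. Each of these 4 groups had 3 libraries, made from total RNA of cells growing in RPMI-1640 with 10% serum and without added ligand. Betaglycan with both sites intact was not among the groups analysed here.

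FGFs are secreted proteins that bind heparan sulfate and signal through receptor tyrosine kinases, and heparan sulfate takes part in the complex of ligand and receptor. Active receptors signal through adaptors to ERK, which switches on ETS factors and inhibitors such as Sprouty proteins that dampen the same route. The GAG chains of betaglycan can themselves bind FGF2, so the design sets cells whose betaglycan has a heparan sulfate-rich chain, a chondroitin sulfate-rich chain or none beside each other.

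Total counts ran from 16410001 to 29504297 per library, and levels are given as CPM, the count scaled to library size with TMM factors, which correct for composition. The upper limit left by 0 counts, 3 counts, was worth 0.100 to 0.182 CPM. Groups are named by their labels, but TGFBR3 goes against them in 2 groups. It was 413 to 476 CPM in S534A and 520 to 574 CPM in S545A, but 15.9, 259 and 259 CPM in libraries 1, 2 and 3 labelled control vector and 260, 20.3 and 21.4 CPM in those labelled ∆GAG-BG. Every direction that involves these 2 groups therefore rests on labels that TGFBR3 does not bear out in libraries 2 and 3. Within S545A, within ∆GAG-BG and within control vector, libraries 2 and 3 lay close to each other: chi-square divided by its degrees of freedom was 1.40 to 1.94, and 16.4 to 74.4 for the other 9 pairs of one group. The p-values then measure the spread between libraries, which may be technical. HSPA5, the chaperone that marks endoplasmic reticulum stress, was 11864 CPM in ∆GAG-BG library 1 and 287 CPM in S534A library 2, and 1228 to 3906 CPM in the other 10 libraries. Of the markers of the labelled ovarian carcinoma, PAX8 was at 193 to 295 CPM and KRT7 at 746 to 1140 CPM, while MUC16, which encodes CA125, and CDH1 were at 0 in every library. Of 10 markers of blood, endothelial and fibroblast cells, 3 were at 0 in every library (CD3E, LUM and DCN). PTPRC, CD68 and PDGFRA had at most 4 counts per library. The endothelial marker CDH5 was at 168 to 431 CPM and VWF, another, at 2.64 to 14.9 CPM, although PECAM1 did not exceed 0.768 CPM. PDGFRB was at 0.701 to 5.04 CPM. The summed level of these 10 genes, most of it from CDH5, was 329 to 412 CPM in control vector and 333 to 387 CPM in ∆GAG-BG. It was 172 to 423 CPM in S534A and 298 to 450 CPM in S545A. The part of these genes in the results was not tested.

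The promoters of FGFBP1 and FGFRL1 are shown because FGFBP1 varied most of the 10 genes between libraries of one group and FGFRL1 was the 1 gene of the 10 with an unadjusted p under 0.05 between any groups. Each is the 250 bases before the start site of the gene in RefSeq (GRCh38.p14), written 5′ to 3′ on the strand of the gene, with CCAAT and the GC box GGGCGG in capitals. FGFBP1 is at chr4:15938741-15938990 on the minus strand and FGFRL1 is at chr4:1012214-1012463 on the plus strand. RefSeq starts FGFRL1 further downstream than the count table does, so the FGFRL1 stretch lies inside the gene as it was counted.
FGFBP1: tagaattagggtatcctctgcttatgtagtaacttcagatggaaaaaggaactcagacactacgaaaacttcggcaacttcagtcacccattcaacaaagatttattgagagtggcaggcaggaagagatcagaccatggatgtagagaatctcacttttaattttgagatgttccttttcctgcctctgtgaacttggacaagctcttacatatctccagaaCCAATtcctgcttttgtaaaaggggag
FGFRL1: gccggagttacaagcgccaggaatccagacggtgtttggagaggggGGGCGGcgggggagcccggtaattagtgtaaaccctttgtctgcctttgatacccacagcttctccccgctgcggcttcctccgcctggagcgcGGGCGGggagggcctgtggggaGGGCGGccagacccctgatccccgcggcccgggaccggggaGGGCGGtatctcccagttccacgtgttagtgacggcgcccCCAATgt

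The FGFBP1 promoter held 1 CCAAT box, at -27 to -23 from the start site, no GC box, and a GC content of 40.8%. The FGFRL1 promoter held 4 GC boxes, between -204 and -42, 1 CCAAT box and a GC content of 67.6%. Across 27305 genes with a RefSeq promoter the median GC content was 58%. On either strand, 33% of these promoters held the CCAAT box and 42.3% held the GC box. The TATA box TATAAA (11.1% of all promoters), the AP-1 element TGANTCA (6.6%) and the endoplasmic reticulum stress response element (0.0806%), which overlaps the CCAAT box, had no match in these 250 bases of either gene. Of the 10 genes, 9 matched an entry, and FGFR1 did not.

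The cells transcribed 3 ligand genes and 1 signaling receptor gene at substantial levels. Genes were compared by counts divided by exon length, the bases of all exons annotated for a gene rather than of the transcripts made. On that scale, CPM per kb of exon, the medians of 12 libraries were 10.4 for FGFRL1 and 8.71 for FGF5. FGF2 stood at 7.99, FGF1 at 7.93 and FGFR1 at 6.06. FGFBP1 followed at 2.32, FGFR4 at 0.253, FGF18 at 0.130 and FGFR3 at 0.0267, and FGFR2 had 0 counts in every library. Most neighbours in this order traded places between libraries. FGF2 was above FGF1 in 8 of 12 libraries, FGF5 above FGF2 in 8, and FGF1 above FGFR1 in 7. FGFRL1 was above FGF5 in 11 of 12, FGFR1 above FGFBP1 in 11, FGFBP1 above FGFR4 in 11 and FGFR4 above FGF18 in 11. FGF5 was above FGF1 in all 12 libraries, by 1.00 to 1.46 times. FGFR1 was above FGFR4, the second signaling receptor by level, in all 12 libraries, by 16.4 to 48.6 times. FGFRL1 exceeded FGFR1 in all 12, by 1.27 to 2.64 times, with lengths of 4145 and 12698 bases. Before division the median was 43.2 CPM for FGFRL1 and 76.9 CPM for FGFR1, so their order depends on the length used.

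**Figure D1:**
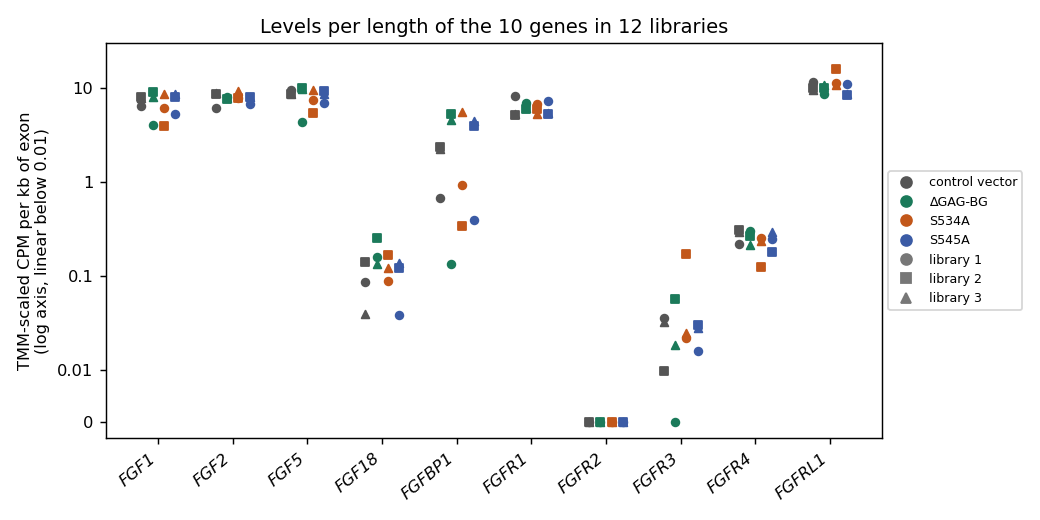
Levels per length (TMM-scaled CPM per kb of exon, log axis that is linear below 0.01) of the 10 genes, with 1 point for each of 12 libraries, colored by group and shaped by library number. FGFRL1, FGF1, FGF2, FGF5 and FGFR1 lie between 3.94 (FGF1) and 15.9 (FGFRL1). FGFBP1 spreads from 0.133 to 5.54 and reaches into that range, and FGFR2 is at 0 throughout.

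Of the 10 genes, 7 passed the filter on low counts, and FGF18, FGFR2 and FGFR3 did not. None of the 7 had an adjusted p under 0.05 in edgeR's quasi-likelihood test of any difference among the 4 groups, where 1 of 16069 genes (0.00622%) did, CHI3L2, named here after its value was seen. DESeq2 and limma-voom gave 0 of the 7 as well. At an unadjusted p under 0.05 in that test it was again 0 of 7, against 1.55% of all genes, and the median p was 0.833 for the 7 genes and 0.570 for all genes. Between single groups no gene of the table had an adjusted p under 0.05 in any of the 6 comparisons by edgeR, where 140 to 768 genes had an unadjusted p under 0.05. FGFRL1 met that unadjusted threshold in 2 comparisons and the other 6 genes in none. In none of the 6 comparisons did the groups of any of the 7 genes fail to overlap, although 10.1% of all genes did in S545A against S534A. For S534A that share was 7.65% beside control vector and 5.66% beside ∆GAG-BG, for S545A it was 8.82% and 5.05%, and for ∆GAG-BG beside control vector it was 4.87%. In bulk RNA, fewer cells with a transcript and less transcript per cell cannot be told apart.

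FGF1 (GRCh38, chromosome 5, 142592178 to 142698070, minus strand) encodes an FGF that can activate all of the FGF receptors and leaves the cell without a signal peptide. It was at 34.4, 43.0 and 41.5 CPM in control vector libraries 1, 2 and 3, at 21.6, 47.7 and 42.8 CPM in ∆GAG-BG, at 32.8, 20.8 and 45.8 CPM in S534A, and at 28.1, 42.1 and 45.3 CPM in S545A. The lowest libraries were S534A 2 and ∆GAG-BG 1, and all groups overlapped. Library 1 was the lowest of its group in control vector, ∆GAG-BG and S545A. A library 1 that was lowest in at least 3 of the 4 groups was found for 22.7% of all genes. The group means were 39.6 ± 4.58 (SD, n = 3) CPM in control vector, 37.4 ± 13.9 in ∆GAG-BG, 33.1 ± 12.5 in S534A and 38.5 ± 9.12 in S545A. S545A differed from S534A by a log2 fold change of 0.22 (SE 0.317, 95% interval -0.47 to 0.92, adjusted p = 0.826, edgeR), an interval that allows a change in either direction.

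FGF5 (chromosome 4, 80266599 to 80336680, plus strand) encodes a secreted FGF best known for ending the growth phase of hair. Its levels were 57.2, 52.2 and 52.3 CPM in control vector, 26.0, 60.3 and 58.4 CPM in ∆GAG-BG, 45.2, 32.3 and 58.0 CPM in S534A, and 41.6, 56.2 and 51.6 CPM in S545A. As for FGF1, ∆GAG-BG 1 and S534A 2 were the lowest of the 12 libraries. Means were 53.9 ± 2.84 (SD, n = 3) CPM in control vector, 48.2 ± 19.3 in ∆GAG-BG, 45.2 ± 12.9 in S534A and 49.8 ± 7.49 in S545A. Between S545A and S534A the log2 fold change was 0.14 (SE 0.282, 95% interval -0.47 to 0.76, adjusted p = 0.874, edgeR). An overlap of 136 exon bases with CFAP299 on the same strand (2.27% of the FGF5 length) makes a small part of its reads ambiguous.

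FGF2 (chromosome 4, 122826708 to 122898236, plus strand), basic FGF, is a heparan sulfate-binding mitogen that also lacks a signal peptide. It was the steadiest of the 7 genes. Its levels were 41.3, 58.4 and 60.9 CPM in control vector, 55.0, 52.5 and 53.8 CPM in ∆GAG-BG, 53.8, 53.0 and 62.7 CPM in S534A, and 46.3, 54.5 and 54.6 CPM in S545A. The highest library was 1.52 times the lowest, and ∆GAG-BG 1 and S534A 2 lay inside the range of the others. Means were 53.5 ± 10.7 (SD, n = 3) CPM in control vector, 53.8 ± 1.21 in ∆GAG-BG, 56.5 ± 5.38 in S534A and 51.8 ± 4.77 in S545A. In S545A against S534A the log2 fold change was -0.12 (SE 0.135, 95% interval -0.42 to 0.17, adjusted p = 0.769, edgeR). FGF2 shares 804 exon bases (11.9% of its length) with NUDT6 on the opposite strand, and whether counting used strand is not given in the sources used here. NUDT6 was at 5.16 to 6.64 CPM, well under FGF2.

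FGF18 (chromosome 5, 171419656 to 171457623, plus strand), a ligand known from bone and cartilage, had 2 to 11 counts per library, or 0.0775 to 0.511 CPM. The 2 lowest libraries were below the limit of 3 counts and the highest were ∆GAG-BG 2 with 11 counts and S534A 2 with 10, and no comparison was made. Of 18 other ligand genes, 5 were at 0 in every library (FGF3, FGF4, FGF6, FGF10 and FGF16) and 1 passed the filter on low counts. That gene was FGF12, which encodes an intracellular protein of the family that is not secreted, at 7.85 to 14.4 CPM. Its p for any difference among the groups was 0.611 by edgeR.

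FGFBP1 (chromosome 4, 15935569 to 15938740, minus strand) encodes a secreted protein that releases FGFs from the matrix. It had 27, 69 and 78 counts in control vector libraries 1, 2 and 3, 4, 155 and 139 in ∆GAG-BG, 36, 14 and 124 in S534A, and 14, 109 and 179 in S545A. In CPM these were 0.934, 3.25 and 3.05 in control vector, 0.181, 7.20 and 6.28 in ∆GAG-BG, 1.28, 0.467 and 7.52 in S534A, and 0.543, 5.34 and 6.12 in S545A. Library 1 was the lowest of its group in control vector, ∆GAG-BG and S545A, and library 2 was the lowest in S534A. A gene whose library 1 was lowest in at least 3 of the 4 groups was not rare, at 22.7% of all genes. The highest library was 41.5 times the lowest, whose 4 counts allow 0.0494 to 0.464 CPM (95% exact Poisson interval, counting error only).

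The spread of FGFBP1 within groups far exceeded its differences between groups. Its pooled within-group SD was 2.08 on the log2 scale (0.5 counts added), against a median of 0.22 over all genes tested, and 2 of 16069 genes had a larger one. For the other 6 genes it was 0.47 (FGF1), 0.42 (FGF5), 0.38 (FGFR4), 0.25 (FGFR1), 0.22 (FGFRL1) and 0.18 (FGF2). In S545A against S534A FGFBP1 had a log2 fold change of 0.47 (SE 1.12, 95% interval -1.99 to 2.93, adjusted p = 0.899, edgeR). Over the 6 comparisons its fold changes ran from -0.66 to 0.93 with SEs of 1.09 to 1.16, so a several-fold change and no change could not be told apart at this spread. The 2 lowest FGFBP1 libraries were ∆GAG-BG 1 and S534A 2, which held the highest and the lowest HSPA5 of the series, and the part of HSPA5 in this was not tested. Of the related binding protein genes, FGFBP3 was at 1.40 to 2.58 CPM and FGFBP2 had at most 1 count.

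**Figure D2:**
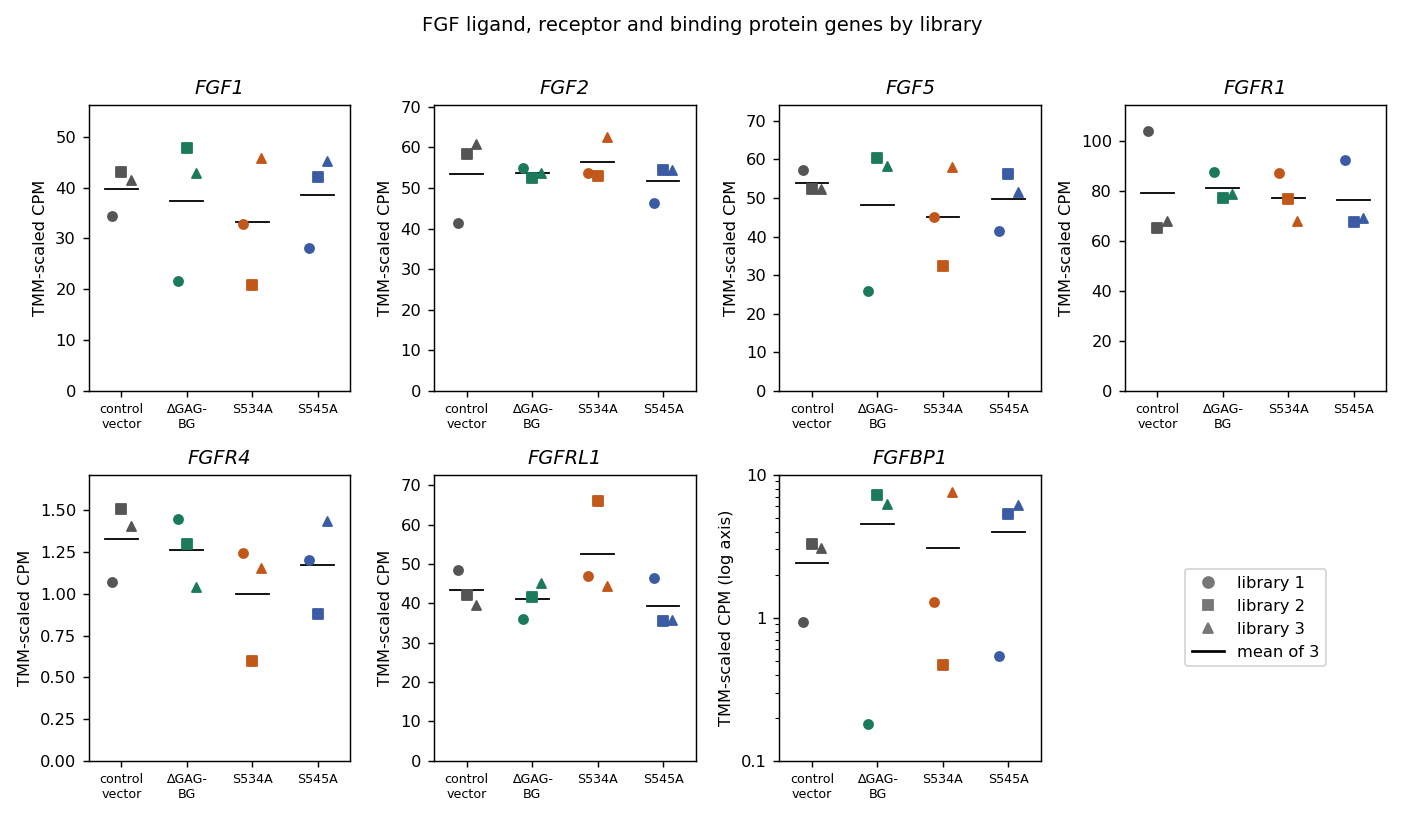
TMM-scaled CPM of the 7 genes that passed the filter, with 1 point per library (circle, square and triangle for libraries 1, 2 and 3) and a bar at the mean of 3, and a log axis for FGFBP1 alone. FGFBP1 runs from 0.181 to 7.52 CPM with the low points inside every group, while FGFRL1 in S534A library 2 stands at 66.1 CPM.

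FGFR1 (chromosome 8, 38411138 to 38468834 in the table, minus strand) encodes the tyrosine kinase receptor that binds FGF1 and FGF2. It was at 104, 65.2 and 68.0 CPM in control vector, 87.4, 77.1 and 78.6 CPM in ∆GAG-BG, 87.1, 76.8 and 68.1 CPM in S534A, and 92.5, 67.7 and 69.0 CPM in S545A. Library 1 was the highest of its group in all 4 groups, which held for 3.91% of all genes, and the groups overlapped. Means were 79.1 ± 21.7 (SD, n = 3) CPM in control vector, 81.0 ± 5.56 in ∆GAG-BG, 77.3 ± 9.54 in S534A and 76.4 ± 13.9 in S545A. The log2 fold change in S545A against S534A was -0.02 (SE 0.178, 95% interval -0.41 to 0.37, adjusted p = 0.979, edgeR). FGFR1 shares 138 exon bases with LETM2 and 156 with an antisense gene, each just over 1% of its length.

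FGFR4 (chromosome 5, 177086886 to 177098144, plus strand), the FGF19 receptor of hepatocytes, was low throughout, with 18 to 42 counts per library. Its levels were 1.07, 1.51 and 1.41 CPM in control vector, 1.45, 1.30 and 1.04 CPM in ∆GAG-BG, 1.24, 0.601 and 1.15 CPM in S534A, and 1.20, 0.882 and 1.44 CPM in S545A. S534A library 2 was the lowest of the 12. Means were 1.33 ± 0.229 (SD, n = 3) CPM in control vector, 1.26 ± 0.209 in ∆GAG-BG, 0.999 ± 0.348 in S534A and 1.17 ± 0.278 in S545A. S545A against S534A gave a log2 fold change of 0.27 (SE 0.301, 95% interval -0.39 to 0.92, adjusted p = 0.778, edgeR). Both the klotho co-receptors that FGFR4 and FGFR1 use for hormonal FGFs were near absent, with KL at 0 in every library and KLB at 2 to 11 counts.

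The remaining signaling receptors were at the edge of detection. FGFR2 (chromosome 10, 121478334 to 121598458, minus strand), an epithelial receptor for FGF7 and FGF10, had 0 counts in 12 of 12 libraries. FGFR3 (chromosome 4, 1793307 to 1808872 in the table, plus strand), which restrains bone growth, had 0 to 6 counts in 11 libraries and 25 counts in S534A library 2. Those 25 counts were 0.834 CPM (95% exact Poisson interval 0.540 to 1.23), while S534A libraries 1 and 3 held 3 and 2 counts.

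FGFRL1 (chromosome 4, 1009936 to 1026897, plus strand) encodes a membrane protein that binds FGFs and heparin but has no tyrosine kinase domain. Its levels were 48.6, 42.1 and 39.6 CPM in control vector, 36.1, 41.7 and 45.1 CPM in ∆GAG-BG, 47.0, 66.1 and 44.4 CPM in S534A, and 46.3, 35.5 and 35.9 CPM in S545A. S534A library 2 was the highest of the 12. S534A library 1 lay above all ∆GAG-BG and S545A libraries but below control vector library 1, and S534A library 3 lay inside the range of each of the other groups. Means were 43.4 ± 4.62 (SD, n = 3) CPM in control vector, 41.0 ± 4.56 in ∆GAG-BG, 52.5 ± 11.9 in S534A and 39.2 ± 6.15 in S545A.

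In S545A against S534A, FGFRL1 had a log2 fold change of -0.42 (SE 0.162, 95% interval -0.77 to -0.07) and an adjusted p of 0.702 over all genes (edgeR). Its unadjusted p was under 0.05, as for 1 of the 7 genes, against 4.78% of all genes and 2.68% for those that were lower. Against the libraries labelled ∆GAG-BG, S534A gave a log2 fold change of 0.36 (SE 0.162, 95% interval 0.00446 to 0.71) and an adjusted p of 0.890 (edgeR). Its unadjusted p was again under 0.05, beside 2.99% of all genes and 1.34% that were higher. Neither difference passed the adjusted threshold. The fit counted libraries 2 and 3 of S545A and of ∆GAG-BG, which lay close to each other, as separate replicates. Without S534A library 2 the log2 fold changes were -0.22 and 0.16, and neither met the unadjusted threshold. The first also missed it without S545A library 2 (-0.35) or 3 (-0.36), and the second without ∆GAG-BG library 1 (0.28) or 2 (0.37).

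The remaining 4 comparisons called 0 of the 7 genes at an unadjusted p under 0.05 by edgeR. The share of all genes was 3.45% for S534A beside control vector, 1.1% for S545A beside ∆GAG-BG, 1.05% for S545A beside control vector and 0.871% for ∆GAG-BG beside control vector. Over the 7 genes the median log2 fold change was 0.14 in S545A against S534A and -0.10 in S534A against ∆GAG-BG, where the medians of all genes were -0.00024 and -0.0027. Comparisons that share the S534A libraries are not independent of each other.

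**Figure D3:**
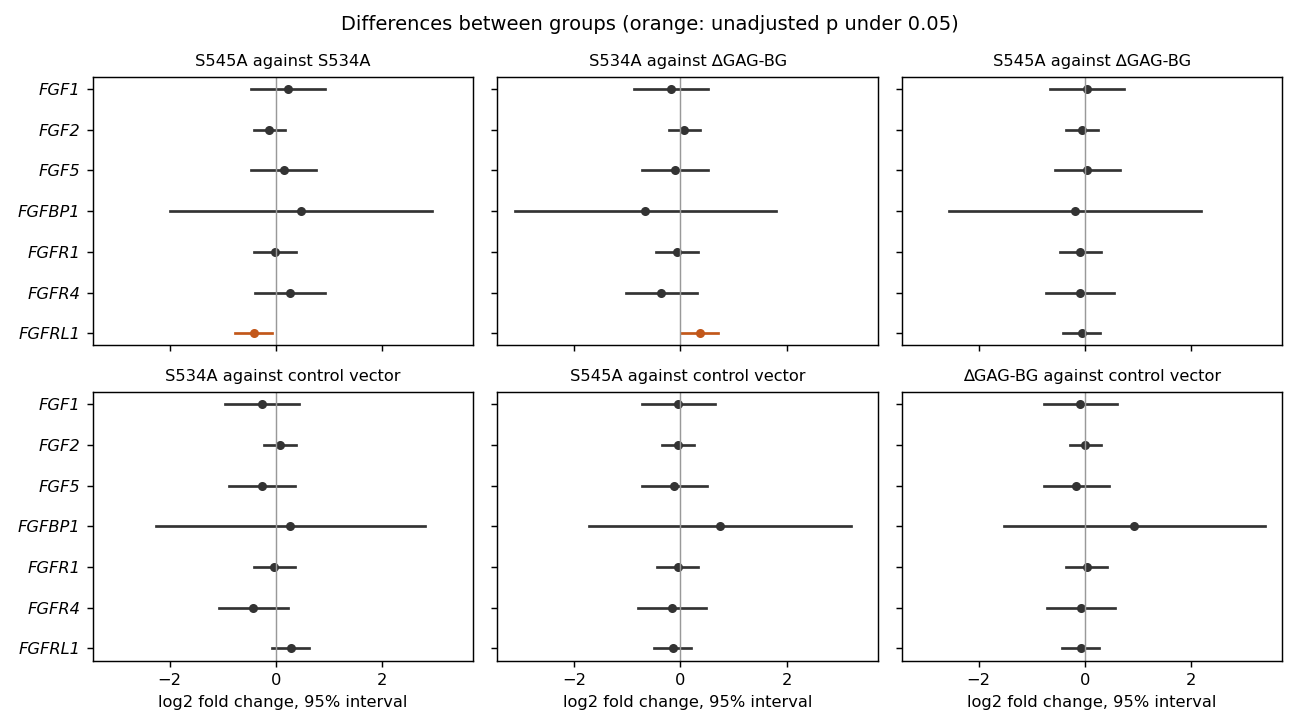
Log2 fold changes (points) with 95% intervals (bars) of the 7 tested genes in the 6 comparisons of 2 groups, from edgeR, with FGFRL1 in orange where its unadjusted p was under 0.05. Intervals for FGF2 lie within 0.42 of 0 on the log2 scale in every comparison, those for FGFBP1 are the widest, and FGFRL1 lies off 0 in S545A against S534A (-0.42) and in S534A against ∆GAG-BG (0.36).

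Downstream of the receptors, all 24 genes of the adaptor and feedback lists passed the filter on low counts. The 10 adaptor genes couple receptors to RAS, ERK and other routes, and 0 of 10 had an unadjusted p under 0.05 by edgeR, neither among the 4 groups (1.55% of all genes) nor between any 2 of them (0.871% to 4.78%). PTPN11, the phosphatase that links FRS2 to RAS, was at 229 to 305 CPM. PLCG1, a phospholipase that binds active FGF receptors, was at 183 to 198 CPM, the highest being 1.08 times the lowest. The summed level of the 10 genes was 1128 to 1179 CPM in control vector, 1118 to 1143 in ∆GAG-BG, 1009 to 1169 in S534A and 1125 to 1140 in S545A.

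The 14 feedback inhibitors and ETS factors included 0 genes with an unadjusted p under 0.05 for any difference among the 4 groups by edgeR (1.55% of all genes). DUSP5, a nuclear ERK phosphatase, was at 88.4 to 322 CPM, and ETV5, an ETS factor switched on by FGF signaling, was at 101 to 184 CPM. Both had their lowest level in S534A library 2. Within S545A, DUSP5 was 130 CPM in library 1 and 314 and 322 CPM in libraries 2 and 3, and in ∆GAG-BG it was 219 to 222 CPM.

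Between single groups, 3 Sprouty genes, which encode inhibitors of receptor signaling to ERK, had an unadjusted p under 0.05, and they are named here after their values were seen. SPRY2 was 88.9, 93.4 and 92.8 CPM in control vector, 93.0, 97.9 and 97.2 CPM in ∆GAG-BG, 72.2, 70.8 and 89.1 CPM in S534A, and 77.6, 96.9 and 101 CPM in S545A. SPRY4 was 115, 142 and 146 CPM in control vector, 154, 143 and 139 CPM in ∆GAG-BG, 103, 111 and 132 CPM in S534A, and 110, 136 and 147 CPM in S545A. For both genes the 3 S534A libraries lay below the 3 libraries labelled ∆GAG-BG. Relative to those libraries, S534A had a log2 fold change of -0.31 (SE 0.112) for SPRY2 and -0.34 (SE 0.132) for SPRY4, both with an adjusted p of 0.890 by edgeR. In that comparison 2 of 14 genes, both lower, were under 0.05 unadjusted and 3 of 14 did not overlap, against 2.99% (1.65% lower) and 5.66% of all genes. The median log2 fold change of the 14 genes was -0.21 there, and -0.0027 over all genes. This median was -0.18 for S534A beside control vector and 0.16 for S545A beside S534A. Comparisons that leave out S534A gave -0.055 to 0.026. Of the 12 libraries, S534A library 2 was lowest for SPRY2, SPRED1, SPRED2, IL17RD, DUSP5, ETV1 and ETV5. It was highest for SPRY1 and SPRY3. The part of that library in the median was not tested.

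SPRY2 also met the unadjusted threshold in S545A against S534A, at a log2 fold change of 0.25 (SE 0.112, adjusted p = 0.702, edgeR) beside 2.1% of all genes that were higher. It met it in S534A against control vector at -0.25 (SE 0.112, adjusted p = 0.871, edgeR), beside 1.26% that were lower. SPRY3 was 2.83 to 3.18 CPM in control vector, 3.25 to 3.58 CPM in ∆GAG-BG, 3.35 to 3.95 CPM in S545A and 3.45, 5.67 and 3.52 CPM in S534A libraries 1, 2 and 3. The S534A, S545A and ∆GAG-BG libraries all lay above the control vector libraries. In these comparisons 7.65%, 8.82% and 4.87% of all genes did not overlap, in either direction. S534A differed from control vector by a log2 fold change of 0.47 (SE 0.196, adjusted p = 0.871, edgeR), beside 2.19% of all genes that were higher unadjusted. Without S534A library 2 these 5 differences kept their sign and none met the unadjusted threshold, with SPRY3 at 0.18. Without S534A library 1 none of the 3 SPRY2 differences met it (-0.27, 0.21 and -0.21), nor did SPRY4 (-0.26). SPRY4 also missed it without ∆GAG-BG library 1 (-0.29), SPRY2 without S545A library 2 or 3 (0.21 and 0.17), and both differences from control vector without any 1 of its libraries (-0.27 to -0.23 for SPRY2 and 0.41 to 0.50 for SPRY3).

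**Figure D4:**
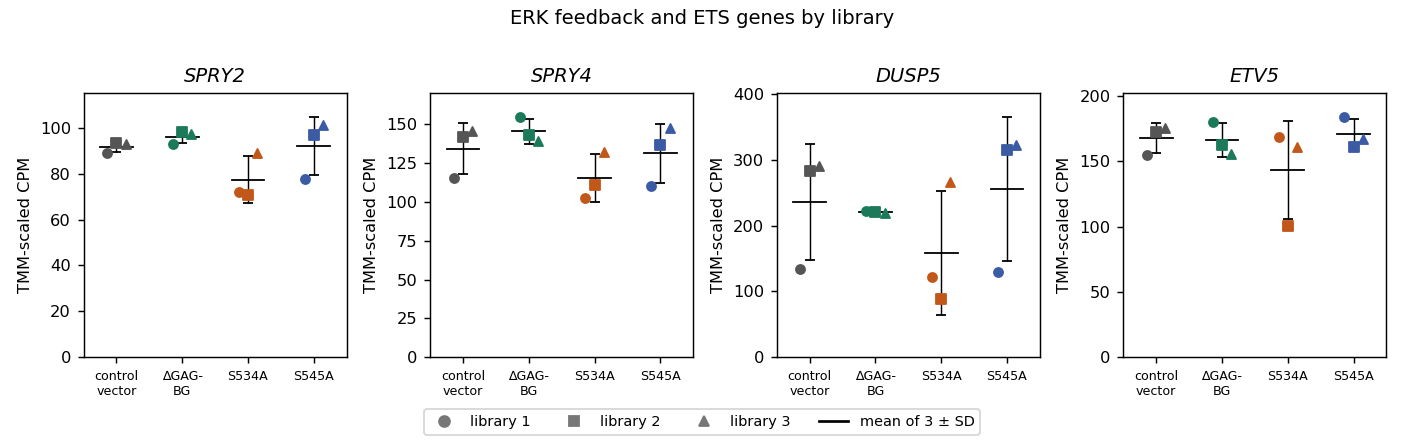
TMM-scaled CPM of SPRY2, SPRY4, DUSP5 and ETV5, with 1 point per library, a bar at the mean of 3 and error bars of 1 SD. S534A libraries lie below the ∆GAG-BG libraries for SPRY2 (70.8 to 89.1 against 93.0 to 97.9 CPM) and SPRY4 (103 to 132 against 139 to 154 CPM), and DUSP5 is lowest in S534A libraries 2 and 1 (88.4 and 123 CPM), followed by library 1 of S545A and of control vector (130 and 135 CPM).

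The genes whose pattern over the 12 libraries was most like that of FGFRL1 were SLC25A12, TAOK2 and C17orf58. The measure is the mean absolute difference between standardized log2 CPM, for which a value of 0 would be an identical pattern, and it was 0.155, 0.163 and 0.169 for these genes against a median of 1.05 over all genes. All of them were highest in S534A library 2, as FGFRL1 was, with SLC25A12 running from 27.0 to 47.0 CPM, TAOK2 from 50.8 to 66.2 CPM and C17orf58 from 7.84 to 13.9 CPM. For FGFR4 the nearest genes were TMEM57 (0.293), RP1-151F17.2 (0.309) and SIM2 (0.322), each lowest in S534A library 2. With 18 to 42 counts, the pattern of FGFR4 holds much counting error.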

How the data were processed

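Total RNA of 12 HEYA8 libraries was sequenced as paired reads after NEBNext Ultra II library preparation, which the labels call directional. Per the labels and the submitters' processing notes, the authors used FastQC, Trim Galore 0.4.5, STAR 2.4, SAMtools 1.2 and featureCounts, and deposited 1 table of raw counts per gene, without normalization. The labels name a mouse build, but the table holds human symbols, and 8 of the 10 genes have the same span in GENCODE release 29 (GRCh38). The annotation release and the strand setting are not given in the sources used here. All 37 mitochondrial genes had 0 counts.

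Genes that passed filterByExpr at a minimum count of 10 were given TMM factors and went into the robust quasi-likelihood test of edgeR 4.0.16 under R 4.3.3, in 1 model of 4 groups with 8 residual degrees of freedom, with Benjamini-Hochberg adjustment over 16069 genes. SEs are the log2 fold change divided by the root of F. The 10 genes and all lists were chosen with earlier results of these data known. All 10 genes were named, with fold changes of each tested gene in S545A against S534A and elsewhere of those under 0.05 unadjusted. Of each pathway list the 1 or 2 genes with the highest mean CPM, not divided by length, were named, and the nearest patterns were sought for FGFRL1 and FGFR4, the genes with the smallest p among the groups. A library titled S545S but with the genotype S545A was used as S545A. Alternatives were DESeq2 1.42.0, limma-voom 3.58.1, other scalings and filters, a replicate block, each library left out, libraries 2 and 3 summed, and only the 2 groups compared. The sum of libraries 2 and 3 was made within S545A, ∆GAG-BG and control vector, while the S534A libraries were kept apart. The scripts were tested on simulated data. A marker gene of the planned lists is not reported here. Between S545A and control vector, libraries with the same number correlated at 0.564, 0.279 and 0.260. The reported fit did not use the numbers as pairs, and the replicate block was an alternative only. Libraries 2 and 3 of both groups lay close to each other, so these correlations cannot tell whether the numbers mark pairs.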

Additional observations from a re-analysis of the deposited data

How the results depend on the processing

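The 7 genes had no adjusted p under 0.05 under any alternative in any comparison. At an unadjusted p under 0.05 for any difference among the 4 groups, the count of 0 of 7 became 1 (FGFRL1) with no filter on low counts and ran from 0 to 1 with each library left out (1 without S534A library 3 or S545A library 1). The 26 tested pathway genes went from 0 to 1 with the replicate block, and from 0 to 4 with each library left out (1 without ∆GAG-BG library 1, 4 without S534A library 3, 2 without S545A library 1). Over all genes, adjusted calls among the 4 groups were 1 by edgeR, 2 by DESeq2, 0 with at least 10 counts in every library, 0 with libraries 2 and 3 summed, and 0 to 1 with each library left out. S545A against S534A had 0 calls by edgeR but 1 each by DESeq2, by limma-voom and with no filter. S534A against ∆GAG-BG had 0, and 5 by DESeq2, 1 by limma-voom and 1 with no filter. S534A against control vector had 0, and 2 by DESeq2, 1 by limma-voom and 1 with no filter. The cause of these changes was not tested.

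In S545A against S534A, the sign turned for 5 genes whose intervals span 0. Without S534A library 2, FGF1 was -0.022, FGF5 -0.046, FGFR4 -0.018 and FGFBP1 -0.063 on the log2 scale. FGFR1 was 0.056 with libraries 2 and 3 summed outside S534A, and with each library left out it ran from -0.18 to 0.082. With each library left out, FGF1 ran from -0.022 to 0.52, FGF5 from -0.046 to 0.36, FGFR4 from -0.018 to 0.51 and FGFBP1 from -0.063 to 2.20, while FGFRL1 ran from -0.55 to -0.22 and against ∆GAG-BG from 0.16 to 0.47. FGFRL1 missed the unadjusted threshold in 12 of 30 alternatives, among them only the 2 groups compared. Its unadjusted p for any difference among the 4 groups was 0.0927 by edgeR, and 0.233 with libraries 2 and 3 summed outside S534A. FGFBP1 has no value with at least 10 counts in every library.

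With the replicate number as a block, FGFRL1 in S534A against ∆GAG-BG was 0.35 and SPRY3 in S534A against control vector 0.45, and both missed the unadjusted threshold. The block changed no other call of a named gene. Same-numbered libraries correlated from -0.22 to 0.37 outside S545A against control vector and from 0.260 to 0.564 within it. These ranges overlap, so the correlations do not settle where the numbers mark pairs. Counting error limits FGF18, FGFR3, FGFR4 and the lowest FGFBP1 libraries.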
